A study of Homo sapiens with 36 samples.

Results

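The proteasome genes on the arrays were taken as all probes whose target name begins with PSMA, PSMB, PSMC, PSMD, PSME, PSMF or PSMG followed by a digit. The rule found 81 of the 47323 probes, for 49 genes. Of these, 74 probes for 48 genes were detected (detection p under 0.05 on at least 6 of the 36 arrays) and entered the tests, among 22612 such probes in all. Not tested were 7 probes: the PSMB11 probe, which was detected on 0 arrays, and 6 further probes of PSMC3IP, PSMD4, PSMD12 (2 probes), PSME1 and PSMF1, genes that all kept another probe. The rule also takes in PSMC3IP, a partner in meiotic recombination that is not a subunit or assembly factor of the proteasome. Its 3 tested probes are included in counts over 74 probes and left out where 71 probes of 47 genes are named.

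RNA came from DLD-1, an epithelial line of a colorectal adenocarcinoma, and Jurkat, a leukaemic T-cell line. For each line there were 12 control arrays and 6 arrays of cells given 20% cigarette smoke extract (CSE) for 2 to 6 h, with no exposure time given for any single sample. Nothing in the labels says whether the samples of a group were separate cultures, so the p-values describe only how far these samples lie apart, which could be technical. Each cell type is represented by a single line, so a difference between them is a difference between 2 lines and not between 2 tissues. In DLD-1 controls, 7 of 8 intestinal epithelial markers (all but VIL1) were detected on all arrays, and in Jurkat controls 7 of 8 T-cell markers were. For Jurkat control replicate 7 the title names Jurkat and the cell line field DLD-1. Its mean correlation was 0.977 with the other Jurkat controls and 0.831 with the DLD-1 controls, and it was kept as Jurkat.

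The proteasome degrades proteins tagged with ubiquitin. Its 20S core is a barrel of outer alpha rings and inner beta rings, in which PSMB5, PSMB6 and PSMB7 carry the catalytic sites for chymotrypsin-like, caspase-like and trypsin-like cleavage. The 19S cap holds a ring of ATPases (PSMC genes) that unfolds substrates, together with receptors and a deubiquitinase that recognise and strip ubiquitin (PSMD genes). In cells of the immune system, or after interferon gamma, PSMB8, PSMB9 and PSMB10 replace PSMB5, PSMB6 and PSMB7 and form the immunoproteasome, which favours peptides that fit MHC class I. The activators PSME1 and PSME2 (PA28 alpha and beta), PSME3 (PA28 gamma) and PSME4 (PA200) dock to the core in place of the cap. Chaperones encoded by PSMG1 to PSMG4 assemble the core, and PSMD5, PSMD9 and PSMD10 assemble the base of the cap. In many human cells, loss of proteasome activity induces the subunit genes together through the transcription factor NRF1 (NFE2L1), which binds antioxidant response elements.

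PSMB8 and PSMB9 lie next to the peptide transporter gene TAP1 on chromosome 6, with TAP2 on the other side of PSMB8. The 250 bases before the RefSeq start are given here for the 3 immunoproteasome genes, whose probes differed between the lines, and for PSMD12, whose probes were called with CSE in both lines (RefSeq, GRCh38.p14, 5′ to 3′ on the gene's strand). Capitals mark any match, on either strand, to 3 motifs: the interferon-stimulated motif (GAAA, any 2 bases, GAAA), the gamma-activated motif TTCNNNGAA, and the antioxidant response motif TGACNNNGC.
PSMB8 (chr6:32844680-32844929, minus strand): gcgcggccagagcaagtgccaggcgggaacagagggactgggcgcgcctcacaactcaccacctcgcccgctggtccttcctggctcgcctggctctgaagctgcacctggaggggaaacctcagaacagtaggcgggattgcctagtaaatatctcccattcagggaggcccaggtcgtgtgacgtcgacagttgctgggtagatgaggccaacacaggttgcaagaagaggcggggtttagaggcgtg
PSMB9 (chr6:32853942-32854191, plus strand): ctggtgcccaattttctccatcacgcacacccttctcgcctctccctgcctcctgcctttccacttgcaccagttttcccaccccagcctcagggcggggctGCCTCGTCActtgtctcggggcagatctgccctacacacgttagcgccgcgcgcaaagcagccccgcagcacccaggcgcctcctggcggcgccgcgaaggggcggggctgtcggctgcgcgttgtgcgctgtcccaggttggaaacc
PSMB10 (chr16:67936851-67937100, minus strand): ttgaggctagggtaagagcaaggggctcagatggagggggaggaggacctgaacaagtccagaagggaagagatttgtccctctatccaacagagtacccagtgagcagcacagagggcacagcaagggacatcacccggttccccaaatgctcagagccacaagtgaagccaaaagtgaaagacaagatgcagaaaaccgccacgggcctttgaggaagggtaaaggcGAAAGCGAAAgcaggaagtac
PSMD12 (chr17:67366578-67366827, minus strand): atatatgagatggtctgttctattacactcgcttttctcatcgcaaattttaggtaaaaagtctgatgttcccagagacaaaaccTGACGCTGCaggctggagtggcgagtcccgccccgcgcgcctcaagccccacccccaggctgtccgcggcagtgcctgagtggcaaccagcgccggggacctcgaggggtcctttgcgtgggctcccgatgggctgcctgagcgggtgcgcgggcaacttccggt

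The PSMB10 window held GAAAGCGAAA at 21 to 12 bases before the start. The PSMD12 window held TGACGCTGC at 165 to 157 bases before the start. The PSMB9 window held the same motif on the opposite strand at 148 to 140 bases, read as GCCTCGTCA on the strand shown. The PSMB8 window held none of the 3. No 2 of these matches overlapped. Among 35116 promoter entries of the same length, the interferon-stimulated motif was in 3.02%, the gamma-activated motif in 6.57% and the antioxidant response motif in 10.9%. Of the 42 proteasome genes with an entry, 5 (11.9%), 5 (11.9%) and 11 (26.2%) held them. The 11 with the antioxidant response motif were PSMB3, PSMB9, PSMD3, PSMD5, PSMD9, PSMD12, PSME1, PSME2, PSME4, PSMG1 and PSMG2. A further search for the heat shock motifs TTCNNGAA and GAANNTTC found 2 and 0 of the 42 genes, against 6.62% and 5.78% of all entries. The CCAAT motif, bound by NF-Y, was in 18 of the 42 (42.9%) and in 32% of all entries. A match is only a description of the letters in these windows.

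From 16012 to 19131 probes were detected on an array, at a median bead intensity of 97.2 to 121.3, and precision here is limited by how many arrays there are. All levels and differences below are on the scale of normalized log2 intensity, in which a probe can be compared between arrays but not with another probe. The median over the 74 probes, each taken relative to the control mean of its line, was -0.17 to -0.12 on 6 of the DLD-1 controls and 0.10 to 0.18 on the remaining 6, with none between. Among Jurkat controls it was -0.19 to -0.14 on 6 and 0.07 to 0.22 on 6. Arrays on each side of the gap came from all 3 BeadChips in both lines. The median over all 22612 probes lay between -0.0220 and -0.00313 on every control array, which quantile normalization sets to nearly the same value. Probes detected per array were 17275 to 18044 on the lower and 16467 to 18330 on the upper DLD-1 controls, and 16672 to 19131 and 16107 to 17241 on the Jurkat controls. The part of this spread in the results below was not tested. With CSE the median lay between -0.04 and 0.21 in DLD-1 and between -0.05 and 0.31 in Jurkat, so that the highest Jurkat CSE arrays exceeded all Jurkat controls and the DLD-1 CSE arrays reached slightly past the DLD-1 controls. In bulk RNA, fewer cells and less RNA per cell cannot be told apart.

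**Figure D1:**
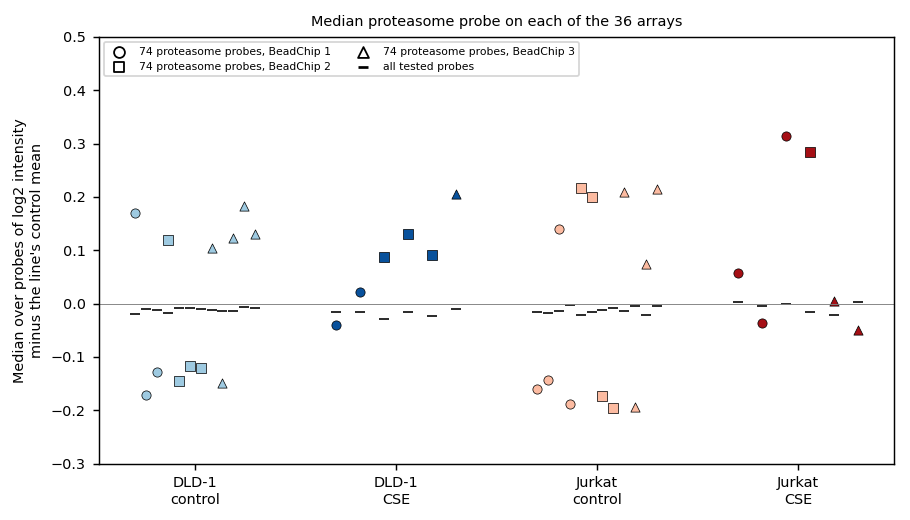
Median over the 74 tested probes of log2 intensity minus the control mean of the line (y axis), for each of the 36 arrays by group (x axis). The marker shape is the BeadChip, and the dash is the median over all 22612 probes. In both lines the 12 control arrays fall into 6 below and 6 above 0 with a gap between, while the dashes lie close to 0, where quantile normalization places them.

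The comparison of the untreated lines asks how the proteasome of an epithelial and of a T-cell line differed before smoke. PSMB9 and PSMB10 of the immunoproteasome, the alpha ring subunit PSMA6, PSME3 and the cap chaperone PSMD10 were lower in DLD-1, by 1.86 to 3.23-fold over their probes. PSME4, the ATPase PSMC6, and the standard core subunits PSMB1 and PSMB5 were higher in DLD-1. In all, 42 of 74 probes passed (56.8%), near the 60.0% of all 22612 probes that passed. Of these, 9 were higher in DLD-1 (27.6% of all probes were) and 33 lower (32.3%). The median difference was -0.20 over the 74 probes and -0.04 over all probes tested. The groups did not overlap for 13 probes, against 22.8% of all probes. By gene, 8 of 48 genes had a probe called higher and 20 a probe called lower, with no gene called in opposite directions.

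**Figure D2:**
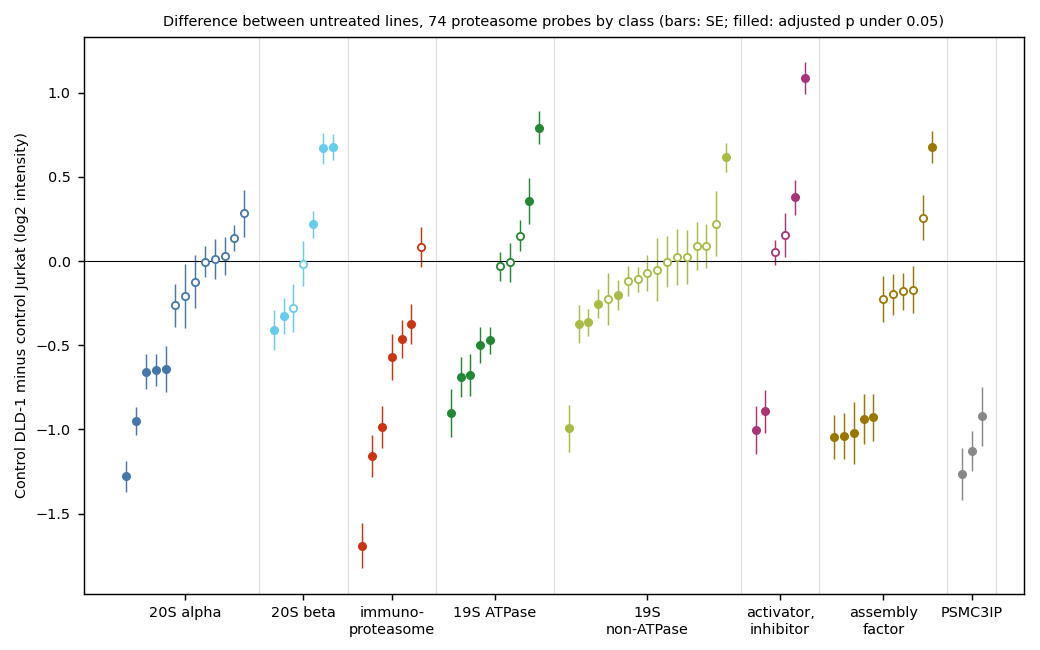
Difference between control DLD-1 and control Jurkat in log2 intensity (y axis) for each of the 74 tested probes, sorted within 8 classes (x axis). Bars are SE, and filled points passed the test. All immunoproteasome probes but 1 lie below 0, while the 20S beta and activator classes hold probes on both sides.

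Of the 7 immunoproteasome probes, 6 were lower in DLD-1 and none higher (32.3% and 27.6% of all probes were), with a median of -0.57. This median is the value of ILMN_2284794, a dim probe of PSMB8. PSMB9, which takes the place of PSMB6, lay at 5.41, 5.99 and 6.81 (lowest, median and highest) on the 12 DLD-1 controls and at 7.31, 7.63 and 8.37 on the 12 Jurkat controls by probe ILMN_2376108. Every DLD-1 control was below every Jurkat control, and the difference was -1.69 (SE 0.13, 3.23-fold lower in DLD-1, adjusted p = 1.6e-14). The second PSMB9 probe, ILMN_1798233, was detected on 9 of 12 DLD-1 controls and gave -0.99 (SE 0.12, adjusted p = 4.2e-09). PSMB10, which takes the place of PSMB7, lay at 9.16, 9.46 and 9.88 in DLD-1 and at 10.20, 10.54 and 11.10 in Jurkat. These groups did not overlap either (-1.16, SE 0.12, 2.23-fold lower, adjusted p = 9.8e-11).

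PSMB8, which takes the place of PSMB5, differed less and its 4 probes did not give the same result. Probe ILMN_1747195 lay at 7.48, 7.91 and 8.25 in DLD-1 and at 8.0, 8.39 and 8.76 in Jurkat, overlapping groups with a difference of -0.46 (SE 0.11, adjusted p = 0.00048). Probes ILMN_2284794 and ILMN_2390299 gave -0.57 (SE 0.14, adjusted p = 0.00036) and -0.37 (SE 0.12, adjusted p = 0.0061). The first of these is dim, at 4.65 to 5.47 on DLD-1 controls and 4.68 to 6.20 on Jurkat controls. The undetected PSMB11 probe reached 4.86, so the size by ILMN_2284794 is uncertain. Probe ILMN_1767006 gave 0.08 (SE 0.12, 95% interval -0.15 to 0.32, adjusted p = 0.59). Within BeadChips 1, 2 and 3 the differences were -1.65, -1.92 and -1.42 for PSMB9 (ILMN_2376108), -0.96, -1.32 and -1.23 for PSMB10, and -0.38, -0.48 and -0.52 for PSMB8 (ILMN_1747195). On the authors' normalized values, to which no further background correction was applied, the differences were smaller for PSMB9 (-0.83 and -0.31) and for the 3 called PSMB8 probes (-0.32 for ILMN_1747195, -0.16 for ILMN_2284794 and -0.29 for ILMN_2390299), and all of them passed.

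The standard catalytic subunits did not mirror this as a set. PSMB5, the chymotrypsin-like subunit, lay at 10.88, 11.06 and 11.26 in DLD-1 and at 9.98, 10.39 and 10.86 in Jurkat. All DLD-1 controls were above all Jurkat controls (0.67, SE 0.09, 1.59-fold higher, adjusted p = 3.8e-08). PSMB6, the caspase-like subunit, went the other way and its groups overlapped, with DLD-1 at 11.26, 11.75 and 11.98 against 11.55, 12.01 and 12.48 for Jurkat (-0.33, SE 0.11, adjusted p = 0.0068). PSMB7, the trypsin-like subunit, was also lower in DLD-1 (-0.41, SE 0.12, adjusted p = 0.0025). Within BeadChips 1, 2 and 3 PSMB5 gave 0.63, 0.84 and 0.52, PSMB6 -0.20, -0.58 and -0.20, and PSMB7 -0.43, -0.40 and -0.42. For each catalytic site the DLD-1 minus Jurkat differences were thus 0.67 for PSMB5 beside -0.57 to 0.08 for PSMB8, -0.33 for PSMB6 beside -1.69 and -0.99 for PSMB9, and -0.41 for PSMB7 beside -1.16 for PSMB10. The -0.57 of PSMB8 comes from the dim probe ILMN_2284794.

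**Figure D3:**
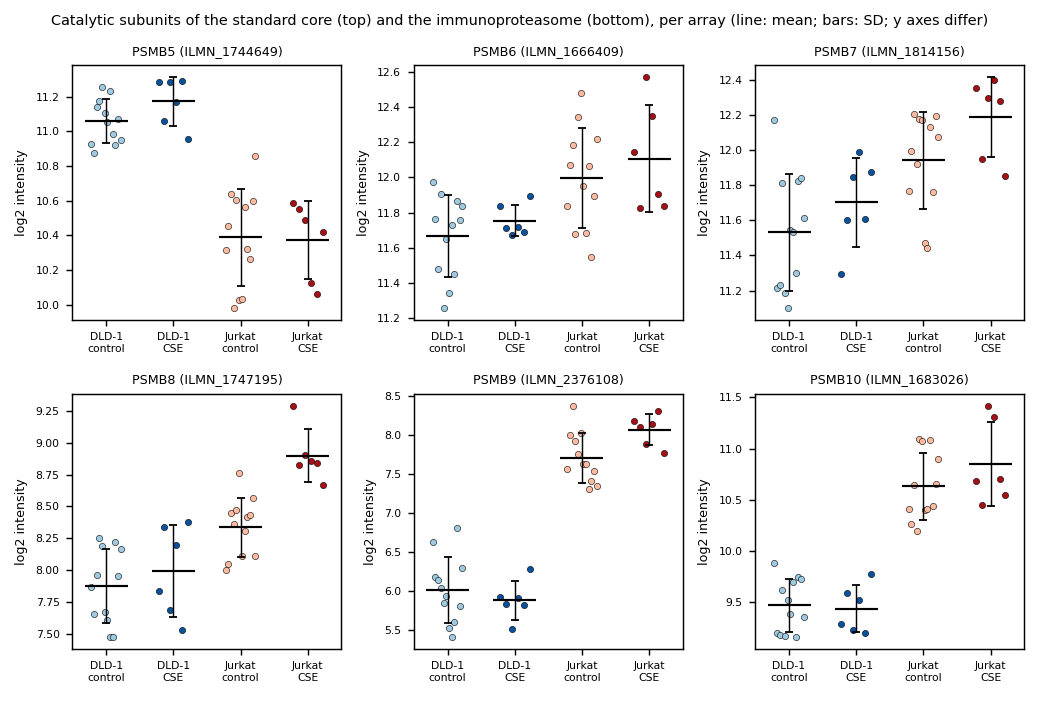
Normalized log2 intensity (y axis) of each array in the 4 groups (x axis) for the standard catalytic subunits (top row) and the immunoproteasome subunits that replace them (bottom row), with mean and SD. PSMB9 and PSMB10 show no overlap between control lines, lower in DLD-1, and PSMB5 shows none, higher in DLD-1. The y axes differ between panels.

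Over the whole 20S core (alpha and beta rings without the immunoproteasome), 10 of 20 probes passed, 3 higher and 7 lower in DLD-1. Of all 22612 probes, 60.0% passed, 27.6% higher and 32.3% lower, so the core did not pass more often than the array as a whole. PSMA6 had the largest difference of the alpha ring. Its probe ILMN_1704094 lay at 10.23, 10.71 and 11.08 in DLD-1 and at 11.61, 12.03 and 12.34 in Jurkat, with no overlap (-1.28, SE 0.09, 2.43-fold lower, adjusted p = 1.2e-15), and ILMN_2151818 gave -0.95 (SE 0.08, adjusted p = 3.9e-13), also with no overlap. PSMB1, a beta ring subunit without a catalytic site, lay at 12.93, 13.22 and 13.52 in DLD-1 and at 12.21, 12.57 and 12.72 in Jurkat, again with no overlap (0.68, SE 0.08, adjusted p = 2.6e-10). No alpha ring probe was called higher in DLD-1. PSMA5 (-0.66) was lower. PSMA7 was also called lower, by a dim probe detected on 1 of 12 DLD-1 and 9 of 12 Jurkat controls, so that no size is given. Among CSE arrays that probe was detected on 1 of 6 in DLD-1 and 4 of 6 in Jurkat. It thus passed the detection filter only through Jurkat, and the PSMA7 call is not a result, though the counts of called probes and genes include it. The PSMA3 and PSMA4 probes differed by -0.12 to 0.03 and none of them passed. The testis-type subunit PSMA8 was detected on 0 of 12 DLD-1 and 5 of 12 Jurkat controls, too close to background for a fold. With CSE it was detected on 0 of 6 DLD-1 and 1 of 6 Jurkat arrays, so it passed the detection filter only through Jurkat. Its call as lower in DLD-1 and its lack of overlap are therefore not a result, though the counts of called and non-overlapping probes and genes include it.

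Of the 27 probes of the 19S cap, 13 passed (48.1%, against 60.0% of all probes), 3 higher and 10 lower in DLD-1. PSMC6, an ATPase, was higher by both its probes. ILMN_1655316 lay at 10.46, 10.86 and 11.16 in DLD-1 and at 9.80, 9.95 and 10.70 in Jurkat, with overlap (0.79, SE 0.10, 1.73-fold, adjusted p = 5.3e-09). ILMN_2096759 gave 0.35 (SE 0.14, adjusted p = 0.024), a call that did not hold without Jurkat control replicate 2 or DLD-1 control replicate 4 (adjusted p at most 0.055). Its fellow ATPases PSMC3 (-0.50), PSMC4 (3 probes, -0.90 to -0.68) and PSMC5 (-0.47) were lower, and the 2 PSMC1 probes did not pass (-0.03 and 0.15). PSMD4, a ubiquitin receptor of the cap, was lower by all 3 probes (-0.36, -0.37 and -0.25). PSMD2, a scaffold of the base, had the largest difference of the cap (-0.99, SE 0.14), and PSMD7, the partner of the lid deubiquitinase, was higher (0.61, SE 0.09). PSMD12 was called by 1 of 3 probes at the threshold (ILMN_1691428, -0.20, adjusted p = 0.047), a call that failed when any of 17 arrays was dropped singly (adjusted p at most 0.086). It also failed with BeadChip as a block (adjusted p = 0.058), with median scaling (adjusted p = 0.064) and without the detection filter (adjusted p = 0.051).

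Activators and chaperones gave some of the clearest differences. PSME4 lay at 9.42, 9.78 and 10.09 in DLD-1 and at 8.35, 8.65 and 8.98 in Jurkat. Every DLD-1 control was above every Jurkat control (1.08, SE 0.10, 2.12-fold higher, adjusted p = 4e-13; 1.27, 1.09 and 0.92 within BeadChips 1, 2 and 3). PSME3 went the other way by both probes, -1.0 (SE 0.14, adjusted p = 5.9e-08) and -0.89 (SE 0.13, adjusted p = 9.7e-08), with overlapping groups. PSME1 was higher in DLD-1 (0.38, SE 0.10, adjusted p = 0.0016), but its difference under median scaling was 0.26 and did not pass (adjusted p = 0.093). PSME2, the partner of PSME1 in PA28, did not pass (0.16, SE 0.13, 95% interval -0.10 to 0.41), nor did PSMF1, which encodes the inhibitor PI31 (0.05, SE 0.08, 95% interval -0.10 to 0.20). PSMG2, a chaperone of the core, was higher in DLD-1 with no overlap (0.68, SE 0.10, adjusted p = 5.5e-08). PSMD10, also known as gankyrin, was lower by all 3 probes (-0.93 to -1.05), and PSMD9 (-0.94) and 1 of 2 PSMG4 probes (-1.02, the other -0.20) were lower as well. All 3 PSMC3IP probes were lower in DLD-1 (-1.26, -1.13 and -0.92). On the authors' normalized values the PSME3 differences were -0.64 and -0.61 and those of PSMC3IP -0.44, -0.55 and -0.35, and all passed.

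The first CSE comparison asks whether smoke extract changed proteasome genes in the T-cell line. In Jurkat, PSMD4 rose by all 3 of its tested probes (1.31 to 1.57-fold) and PSMB8 by 3 of 4 (1.39 to 1.47-fold). PSMD13, a lid subunit, rose by 1 of 2 probes, and PSMD12, also of the lid, fell by 1 of 3. In all 8 of 74 probes passed (10.8%), fewer in share than the 18.1% of all probes that passed. Of these 7 were higher (7.40% of all probes were) and 1 lower (10.7% of all probes). The median change was 0.10 over the 74 probes and 0.02 over all probes tested. Within BeadChips 1, 2 and 3 the median of the 74 probes was 0.20, 0.27 (1 CSE array) and -0.12, so its sign changed on BeadChip 3. Over all probes it was 0.03, -0.01 and -0.005. The groups did not overlap for 2 probes, against 2.91% of all probes. BeadChip 2 held 1 Jurkat CSE array (replicate 4) and BeadChip 3 held 1 DLD-1 CSE array (replicate 6), so a CSE value within those BeadChips rests on that single array and has no replicate.

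PSMD4 was the 1 gene with several tested probes for which all of them passed. By ILMN_2344130 it lay at 9.88, 9.96 and 10.24 on the 12 Jurkat controls and at 10.32, 10.52 and 10.84 on the 6 CSE arrays. Every CSE array was above every control (0.51, SE 0.10, 1.43-fold, adjusted p = 0.00015). By ILMN_3307799 the values were 8.72, 9.13 and 9.34 in controls and 9.58, 9.68 and 10.002 with CSE, again with no overlap (0.66, SE 0.14, 1.57-fold, adjusted p = 0.00052). By ILMN_1728355, 5 of 6 CSE arrays lay above all controls (0.39, SE 0.10, adjusted p = 0.0068). Within BeadChips 1, 2 and 3 the changes were 0.40, 0.83 and 0.48 for ILMN_2344130, 0.77, 0.69 and 0.48 for ILMN_3307799 and 0.39, 0.53 and 0.21 for ILMN_1728355, the second value of each from 1 CSE array. All 3 calls held in each fit that left out 1 array.

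PSMB8 carried the calls of the immunoproteasome. By ILMN_1747195 the Jurkat controls lay at 8.0, 8.39 and 8.76 and the CSE arrays at 8.67, 8.85 and 9.29, with 5 of 6 above all controls (0.56, SE 0.14, 1.47-fold, adjusted p = 0.0031). By ILMN_2390299 the values were 8.22, 8.80 and 9.15 in controls and 9.09, 9.31 and 9.45 with CSE, also with 5 of 6 above all controls (0.49, SE 0.14, adjusted p = 0.015). ILMN_1767006 gave 0.47 (SE 0.15, adjusted p = 0.019), a call that failed when Jurkat CSE replicate 3 or 4 was dropped (adjusted p at most 0.063). ILMN_2284794, a dim probe, did not pass (0.33, SE 0.17, adjusted p = 0.17). By BeadChip (1, 2 and 3), ILMN_1747195 gave 0.79, 0.44 and 0.37, and ILMN_2390299 gave 0.60, 0.36 and 0.55, with 1 CSE array behind each second value.

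The other immunoproteasome genes had smaller differences in Jurkat that did not pass. PSMB9 gave 0.36 (ILMN_2376108, SE 0.16, adjusted p = 0.13) and 0.31 (ILMN_1798233, SE 0.15, adjusted p = 0.16), and PSMB10 gave 0.22 (SE 0.15, adjusted p = 0.36). On the authors' normalized values the first PSMB9 probe passed (0.23, adjusted p = 0.039). All 7 immunoproteasome probes had a difference above 0, with a median of 0.36, while 12149 of all 22612 probes had one. Monocytes and B cells also express these genes. Of 7 markers of those cells, 4 were tested and 2 changed in Jurkat with CSE, CD14 rising by 0.58 (adjusted p = 0.022) and FCGR3A lower at -0.60 (adjusted p = 0.034). The log2 of the summed intensity over all probes of that list was 8.94 to 9.60 in controls and 9.18 to 10.02 with CSE. This sum includes probes that were not detected, and LYZ was detected on 0 arrays of either group. The part of that list in the result was not tested.

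Both PSMD12 and PSMD13 gave calls that rested on a single probe. PSMD12 by ILMN_1691428 lay at 13.65, 13.92 and 14.19 on Jurkat controls and at 12.83, 13.27 and 13.71 with CSE, with 5 of 6 CSE arrays below all controls (-0.67, SE 0.11, adjusted p = 1.5e-05). The values within BeadChips 1, 2 and 3 were -0.98, -0.47 (1 CSE array) and -0.40. Its other probes did not pass, at 0.08 (ILMN_2368971, SE 0.18) and -0.11 (ILMN_1670893, SE 0.13, detected on 3 of 12 controls and no CSE array). PSMD13 by ILMN_2342121 gave 0.69 (SE 0.23, adjusted p = 0.032), with controls at 6.03, 6.95 and 7.61 and CSE arrays at 7.06, 7.46 and 8.78. The highest value is replicate 4, the only CSE array above all controls. Without it the difference was 0.46 and did not pass (adjusted p = 0.18), and the call also failed when Jurkat CSE replicate 1 or Jurkat control replicate 7 or 10 was dropped. The other PSMD13 probe gave 0.23 (SE 0.18, adjusted p = 0.44).

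The 20S core of Jurkat did not shift detectably. None of its 20 probes passed in limma, none had an unadjusted p under 0.05, and the median was 0.02 with a range of -0.19 to 0.25. PSMB5 gave -0.02 (SE 0.11, 95% interval -0.24 to 0.21), PSMB6 0.11 (SE 0.13, interval -0.14 to 0.36) and PSMB7 0.25 (SE 0.14, interval -0.04 to 0.53). Of the 27 cap probes 5 passed (18.5%, against 18.1% of all probes), those of PSMD4, PSMD12 and PSMD13, and 9 had an unadjusted p under 0.05, as had 6701 of all 22612. None of the 6 activator and inhibitor probes passed (1 with an unadjusted p under 0.05). Among them PSME3 gave -0.38 (ILMN_1800975, adjusted p = 0.087) and -0.16, PSME1 0.21, PSME2 0.16, PSME4 -0.06 and PSMF1 0.09. None of the 11 chaperone probes passed either (2 with an unadjusted p under 0.05). PSMC6 was close to the threshold by both probes, 0.32 (ILMN_1655316, SE 0.12, adjusted p = 0.067) and 0.44 (ILMN_2096759, SE 0.17, adjusted p = 0.063). The first PSMC6 probe passed with an offset of 50, without background correction, with median scaling and on the authors' values (0.29 to 0.45, adjusted p = 0.026 to 0.049). The second passed with BeadChip as a block (0.48, adjusted p = 0.038). Within BeadChips 1, 2 and 3 the first gave 0.56, 0.61 and -0.15 and the second 0.75, 0.62 and 0.02. The BeadChip 2 values rest on 1 CSE array, and neither probe showed a rise on BeadChip 3.

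**Figure D4:**
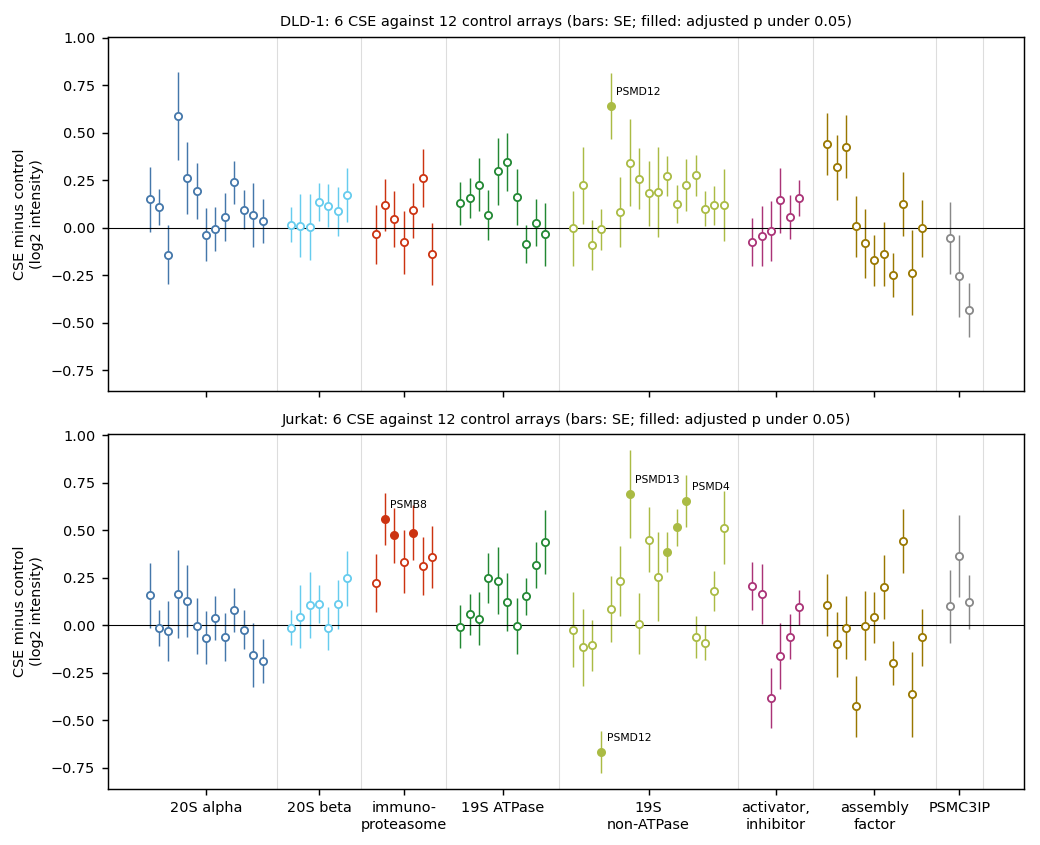
Change with CSE in log2 intensity (y axis, CSE minus control) of the 74 tested probes by class (x axis) in DLD-1 (top) and Jurkat (bottom), with SE. Filled points passed the test, and each gene with a call is named once. In Jurkat the 7 immunoproteasome probes all lie above 0 and the 20S core probes lie around 0, and in DLD-1 only PSMD12 is filled.

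In DLD-1, the comparison asks the same of the epithelial line, and a single probe passed. PSMD12 rose by ILMN_2368971, from 8.72, 9.48 and 9.90 on the 12 controls to 9.50, 10.05 and 10.48 on the 6 CSE arrays, of which 4 lay above all controls (0.64, SE 0.18, 1.56-fold, adjusted p = 0.027). Its other probes gave -0.01 (ILMN_1691428, SE 0.11) and -0.09 (ILMN_1670893, SE 0.13). This is 1 of 74 probes (1.35%), against 3.71% of all probes (1.70% higher and 2.01% lower). The call failed when DLD-1 CSE replicate 3, 4 or 5 was dropped (adjusted p at most 0.13), and in a limma fit of the DLD-1 arrays alone (adjusted p = 0.065). Within BeadChips 1, 2 and 3 the change was 0.45, 1.16 and 0.24, the last from 1 CSE array. No proteasome probe separated the groups without overlap, against 0.504% of all probes.

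The remaining DLD-1 differences did not pass, and ranged from -0.43 (a PSMC3IP probe) to 0.59 (PSMA2). The median was 0.09 over the 74 probes and -0.0035 over all probes tested, and 51 of the 74 differences were above 0, as were 11146 of all 22612. An unadjusted p under 0.05 was found for 10 of the 74 and 3621 of all probes. By class the medians were 0.09 for the 20S core, 0.16 for the 19S cap, 0.05 for the immunoproteasome, 0.02 for activators and inhibitors and -0.002 for chaperones. PSMB5, PSMB6 and PSMB7 gave 0.12, 0.09 and 0.17, and PSMB8 gave -0.08 to 0.12. PSMB9 gave -0.14 and 0.26, and PSMB10 gave -0.04 (SE 0.15, 95% interval -0.33 to 0.26). The activators PSME1, PSME2 and PSME4 gave -0.07, -0.05 and 0.06, PSME3 0.14 and -0.02, and PSMF1 0.16. The 3 PSMD10 probes gave 0.32 to 0.44 (adjusted p = 0.13 to 0.37), and PSMA2, of the alpha ring, gave 0.59 (SE 0.23, adjusted p = 0.16). PSMD4 gave 0.13, 0.23 and 0.27, and PSMD13 gave 0.34 and 0.08.

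**Figure D5:**
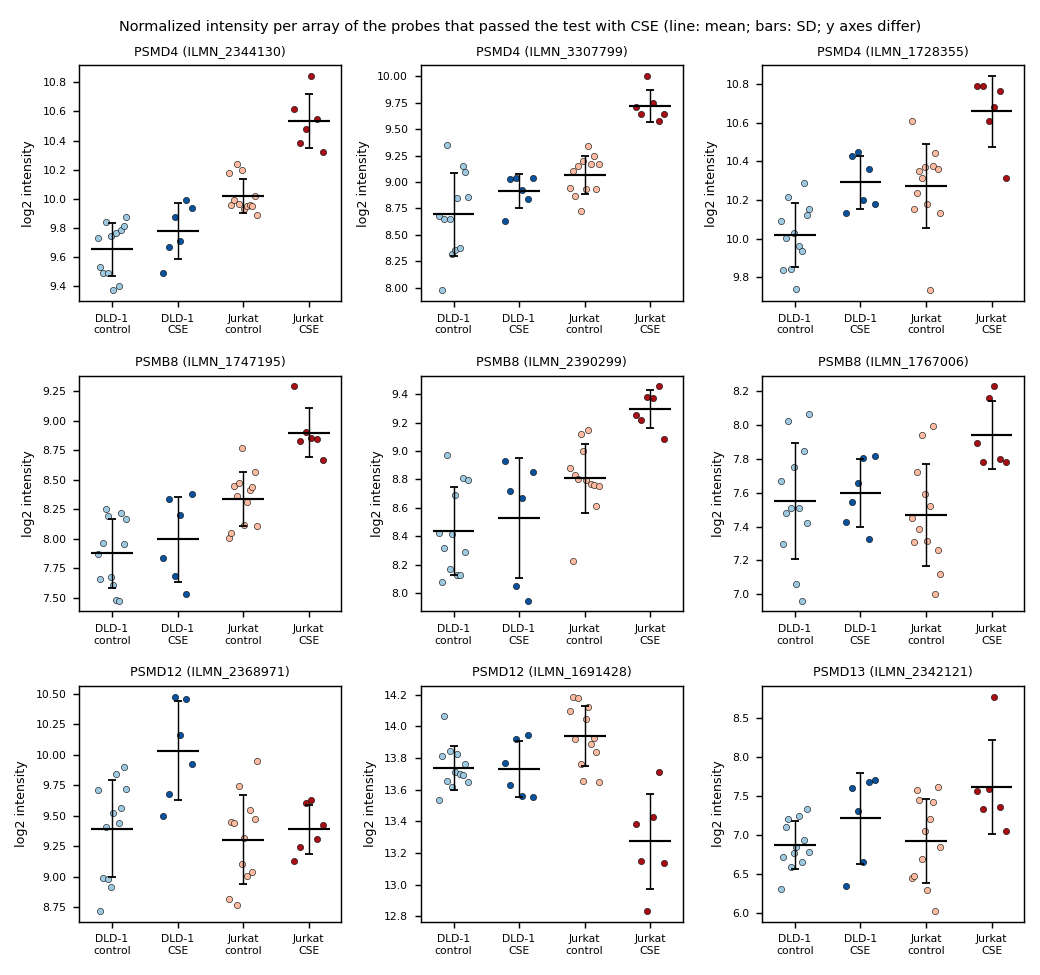
Normalized log2 intensity (y axis) of each array in the 4 groups (x axis) for the 9 probes that passed with CSE in either line, with mean and SD. For the first 2 PSMD4 probes all 6 Jurkat CSE arrays lie above all 12 Jurkat controls, and PSMD13 has a single high Jurkat CSE array. The y axes differ between panels.

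The test of the difference between the effects asks whether the lines responded unequally. PSMD12 by ILMN_1691428 was the 1 probe of 74 that passed (1.35%, against 5.60% of all probes, 3.66% higher and 1.95% lower), with a DLD-1 minus Jurkat difference of 0.66 (SE 0.15, adjusted p = 0.0083). This probe gave -0.67 in Jurkat and -0.01 in DLD-1. The other PSMD12 probes did not pass. ILMN_2368971 gave 0.56 (SE 0.25, adjusted p = 0.19), from a rise in DLD-1 and 0.08 in Jurkat, and ILMN_1670893 gave 0.01 (adjusted p = 0.98). Within BeadChips 1, 2 and 3 the difference by ILMN_1691428 was 0.87, 0.57 and 0.23, and on BeadChips 2 and 3 one line has a CSE group of 1 array. For PSMD4 the differences were -0.39 (adjusted p = 0.088), -0.43 (adjusted p = 0.2) and -0.11 (adjusted p = 0.74). For PSMB8 the 4 probes gave -0.39 to -0.44 (adjusted p = 0.19 to 0.34), with 95% intervals from -0.87 to 0.05. The calls of PSMD4 and PSMB8 in Jurkat are therefore not shown to differ from DLD-1 in this fit. ILMN_2344130 of PSMD4 passed under 3 alternatives, with an offset of 50 (-0.38, adjusted p = 0.042), without background correction (-0.37, adjusted p = 0.035) and on the authors' normalized values (-0.37, adjusted p = 0.03).

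Other genes of the ubiquitin system were read from a list of 32, of which 26 genes with 36 probes were tested. In DLD-1, 6 of 26 genes rose with CSE and none fell, by 8 and 0 of the 36 probes, beside 1.70% and 2.01% of all probes. ZFAND2A, whose product binds the cap under proteotoxic stress, rose by 1.93 (SE 0.35, 3.81-fold, adjusted p = 0.00054), with controls at 8.36, 8.98 and 9.86 and CSE arrays at 9.46, 10.39 and 13.12. UBQLN1, a shuttle that carries ubiquitinated proteins to the proteasome, rose by 2 of 3 probes (0.88 and 0.81, the third -0.05), and UFD1L, a partner of the segregase VCP, by 2 of 2 (0.86 and 0.89). ZFAND5 (0.56), NFE2L2 (0.66), which encodes NRF2, and 1 of 2 probes of ZFAND1 (0.53) rose as well. The list median was 0.13.

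In Jurkat, 5 of the 26 genes rose and 4 fell, by 5 and 6 of the 36 probes, beside 7.40% and 10.7% of all probes. The list median was 0.12. ZFAND2A rose by 2.09 (SE 0.35, 4.26-fold, adjusted p = 2.3e-05), and all 6 CSE arrays (10.08, 10.97 and 12.97) were above all controls (8.50, 8.99 and 9.45). USP14, a deubiquitinase that binds the cap, fell by both probes, -0.81 (ILMN_1806804, SE 0.17, adjusted p = 0.00068) and -0.64 (ILMN_2402947, SE 0.15, adjusted p = 0.002), with 5 of 6 CSE arrays below all controls for each. UBE3C, a ligase found at the proteasome, fell by 1 of 2 probes (-0.50, the other -0.29), UBE3A by both (-0.51 and -0.43), and the shuttle RAD23B by its single probe (-0.58). USP14 (ILMN_1806804, 0.96, SE 0.25, adjusted p = 0.016) and RAD23B (0.76, SE 0.23, adjusted p = 0.047) also passed the test of the difference between the lines, while the other USP14 probe did not (0.34, adjusted p = 0.4).

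Partners of the immunoproteasome in antigen processing were read from a list of 16, of which 14 genes with 22 probes were tested. None passed with CSE in DLD-1 (3.71% of all probes did), and 3 of the 22 probes did in Jurkat (18.1% of all). There, TAP1, the neighbour of PSMB9, rose by 0.53 (SE 0.18, adjusted p = 0.034), with controls at 7.84, 8.45 and 8.95 and CSE arrays at 8.41, 9.05 and 9.22. HLA-E rose by 0.54 (SE 0.12, adjusted p = 0.001), and TAP2 fell by 1 of 2 probes (-0.48, adjusted p = 0.0019, the other -0.05). Between the untreated lines, partners did not follow PSMB9 and PSMB10 as a set: 8 genes had a probe called higher in DLD-1 and 5 lower, by 14 and 6 of the 22 probes, beside 27.6% and 32.3% of all probes. B2M, the light chain of MHC class I, was lower in DLD-1 by both probes (-2.39 and -2.49), as was HLA-B (-2.04). HLA-E (2.28) and HLA-F (0.36 and 2.27) were among those higher. HLA genes are close in sequence, so their probes cannot be assigned with certainty.

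Probes of 1 gene share a target and were not treated as replicates. Of the 18 genes with several tested probes, all probes gave the same call for 8 genes and none was called for 7 in the comparison of untreated lines, and 3 (PSMB8, PSMD12 and PSMG4) were mixed. With CSE in Jurkat, PSMD4 was the 1 gene with all probes called, 14 had none called, and PSMB8, PSMD12 and PSMD13 were mixed. In no comparison did 2 probes of a gene pass in opposite directions. PSMD12 had the widest spread between probes with CSE, 0.73 in DLD-1 and 0.75 in Jurkat. RefSeq names 52 pseudogenes of 21 of the 49 genes, 1 each for PSMD4 and PSMD12, so a probe may also read such a copy.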

How the data were processed

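RNA was hybridised to Illumina bead arrays, 36 arrays on 3 BeadChips. The deposited table gives, per the file headers, a non-normalized bead intensity and a detection p-value per probe and array, with p in steps of 1 in 769. A second table holds intensities that the authors normalized. Names of the programs behind both are not given in the sources used here. Intensities were background-corrected with limma's normexp from detection p-values (offset 16), quantile normalized and taken to log2. Probes with detection p under 0.05 on at least 6 arrays were kept (22612 of 47323). A single limma fit with 4 group means, which shares its spread over all groups, gave every difference, with Benjamini-Hochberg adjustment over all kept probes and a threshold of 0.05. Intervals are 1.96 SE (95%). No test of a difference between classes was made. R 4.3.3, limma 3.58.1, Python 3.11.15 and matplotlib 3.10.9 were used. The fit was tested on simulated data: for a simulated DLD-1 CSE minus control comparison of 22612 probes, 36% of changes of 0.5 and 91% of changes of 1 (log2) were recovered, with 5 false calls. The simulated noise was independent between probes and arrays. It does not hold the shared spread of the proteasome probes over the control arrays, so these figures do not cover that spread.

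The members and lists were chosen with earlier results of these data known. The genes named in full were, by rule, the immunoproteasome, its standard counterparts, the activators and inhibitor, all genes called with CSE, and those with the largest differences between untreated lines, and other genes were named after their values were seen. Counts over lists of other ubiquitin genes, antigen-processing partners and markers of epithelium, T cells and monocytes or B cells are given in the report. Of 5 fibroblast markers 0 were detected on all arrays of either control group. Alternatives covered background correction, scaling, the detection filter, the authors' values, the brightest probe per gene, BeadChips, the groups fitted and each array left out. Some genes counted in the partner and marker lists are not reported here by name.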

Additional observations from a re-analysis of the deposited data

Results flagged for a closer look

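A total of 56 groups of 6 arrays were tested for a single array far from the rest, of which chance alone places about 1 in 20 past the limit, and 4 were past it. Jurkat CSE replicate 6 was lowest for PSMB9 by ILMN_1798233, at 5.93 where the next array lay at 6.45 and the highest at 6.72. The same array was lowest for PSME4, at 7.98, with the next at 8.55 and the highest at 8.87. Jurkat CSE replicate 4 was highest for PSMD13 by ILMN_2342121, at 8.78, with the next at 7.59 and the lowest at 7.06. DLD-1 CSE replicate 5 was highest for PSMC6 by ILMN_1655316, at 11.02, with the next at 10.85 and the lowest at 10.79.

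The change of PSMD12 with CSE by ILMN_1691428 differed between the lines, by 0.66 (DLD-1 minus Jurkat, adjusted p = 0.0083 in limma). The other PSMD12 probes did not pass that test.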

How the results depend on the processing

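No paired analysis was possible because the labels carry no replicate numbers, and numbers given in accession order only name arrays. Of 6375 values for named probes under the alternatives, 6260 kept their side of the threshold. Of the others, 88 no longer passed, 27 newly passed and 0 reversed while called. Values that did not pass could change sign, as PSMB10 with CSE in Jurkat did (0.22 in the main fit, -0.14 within BeadChip 3). In DLD-1 with CSE the 1 call became 0 without the detection filter, with the brightest probe of each gene, within BeadChips 1 and 3 and in a fit of the contrast's own groups, and 6 within BeadChip 2. Leaving out 1 array gave 0 to 2. In Jurkat with CSE the 8 calls became 13 with median scaling, 12 with BeadChip as a block, without background correction and on the authors' values, 3 with the brightest probe, and 5, 1 and 0 within BeadChips 1, 2 and 3. BeadChip 2 held 1 Jurkat CSE array and BeadChip 3 held 1 DLD-1 CSE array, each assumed to vary like the other groups. Leaving out 1 array gave 6 (without Jurkat CSE replicate 4) to 13 (without replicate 6). For the difference between lines, the 1 call became 2 with an offset of 50, without background correction and on the authors' values, and 0 within each BeadChip, with 1 to 2 when 1 array was left out. Between untreated lines the 42 calls became 27 within BeadChip 3, with 40 to 44 when 1 array was left out and 42 with median scaling (7 higher, 35 lower). Median scaling moved the median of all probes to 0.17 for Jurkat CSE and to -0.11 for the difference between lines. Fits within a BeadChip and with 1 probe per gene use fewer arrays or probes. The cause of the other shifts was not tested. Probes near background, such as those of PSMA8, give no fold.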
